A study of Homo sapiens and Mus musculus with 29 samples.

Results

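The ligands of the epidermal growth factor (EGF) family and the ERBB receptors were followed in 2 RNA-seq tables of pancreatic cancer models. The set comprised 10 genes chosen by symbol, the 6 ligands EGF, TGFA, AREG, EREG, HBEGF and BTC and the 4 receptors EGFR, ERBB2, ERBB3 and ERBB4. All 10 were found among the 58719 genes of the human table, and all 10 mouse orthologs among the 54446 genes of the mouse table.

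The study asked how the transcription factors HNF4G and FOXA1 act in primary and metastatic pancreatic cancer. HPAF-II, an established human pancreatic adenocarcinoma cell line, was implanted into the tail of the pancreas of NSG mice, which lack T, B and natural killer cells and were about 8 weeks old. The human table held 21 samples from 15 mice, and the mouse table held 8 samples of cultured cells from the KPC model, an autochthonous mouse model of pancreatic cancer. Tumors were collected at a humane endpoint, and the KPC lines came from a primary tumor and its matched liver metastasis.

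Every HPAF-II sample was labeled for CRISPR, as HNF4G knockout or Cas-9 alone, and for lentiviral FOXA1 or EV, the label of its control. The control tumors (n = 3) carried Cas-9 and EV. The HNF4G-KO tumors (n = 4) carried an HNF4G knockout and EV, the FOXA1-OE tumors (n = 3) Cas-9 and lentiviral FOXA1, and the HNF4G-KO + FOXA1-OE tumors both changes (5 tumors from 4 mice, of which tumors 2 and 3 shared a mouse). Knockout cells were clones picked for a frameshift and then pooled, so differences between clones cannot be told apart from the knockout. Metastases were available for the knockout (2, both peritoneum) and for HNF4G-KO + FOXA1-OE (4 from 3 mice, of which 1 from spleen, 1 from peritoneum and 2 labeled "peri mets in fat"). The KPC lines were labeled wild type and untreated, with 4 libraries each.

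ERBB receptors are tyrosine kinases of the cell surface that pair up once a ligand binds and then switch on the RAS-MAPK and PI3K-AKT pathways. EGF, TGFA and AREG bind EGFR, HBEGF, BTC and EREG bind EGFR and ERBB4, ERBB2 has no known ligand and acts as a partner, and ERBB3 has a weak kinase and binds neuregulins. All of these ligands are made as membrane proteins and are released by proteases.

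Some libraries went against their labels or stood apart. HNF4G RNA was higher in the HNF4G-KO tumors (5.72 to 8.42 RPKM, reads scaled by the length of the gene and the depth of the library) than in the control tumors (2.48 to 3.47), so the RNA level did not show the knockout, and a frameshift need not lower the RNA. FOXA1 lay at 6.32 and 8.18 RPKM in FOXA1-OE tumors 1 and 2 but at 0.763 in tumor 3, against 0.519 to 0.932 in the control tumors. In the HNF4G-KO + FOXA1-OE tumors FOXA1 reached 4.65 to 23.1 RPKM, whereas 3 of the 4 metastases of this label had 0.535 to 1.55 and the other had 17.9. HNF4G was lowest of all samples in FOXA1-OE tumor 3 (0.495) and next lowest in HNF4G-KO + FOXA1-OE tumor 5 (1.69). The epithelial markers EPCAM, KRT8, KRT18, KRT19 and CDH1 were all at or above 1 RPKM in every library, and depth ran from 33100000 to 69600000 recovered reads in the HPAF-II samples. Summed RPKM of 10 stromal genes, whose reads from mouse host cells can align to the human genome, ran from 29.6 to 160.0 in the tumors and from 57.4 to 334 in the metastases, with 3 to 5 of the 10 genes at or above 1 RPKM in any library. Summed RPKM of 8 genes of normal pancreas was 413 in 1 control tumor and at most 34.8 in every other library.

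The promoters of 4 of the members, AREG, EREG, EGFR and HBEGF, are given for orientation. AREG and EREG are neighbors on chromosome 4 in GRCh38, with EREG at 74365145 to 74388749 and AREG at 74445136 to 74455005, both on the plus strand and 56.4 kb apart. EPGN lay 48.4 kb before EREG and BTC 289.8 kb after AREG, on the minus strand. EGFR lies on chromosome 7 (55019017 to 55211628, plus strand) and HBEGF on chromosome 5 (140332843 to 140346603, minus strand). The sequences are the 250 bases before a RefSeq start (GRCh38.p14; for EGFR the first of 2 starts), 5′ to 3′ on the strand of the gene, at chr4:74444886-74445135 (AREG), chr4:74364895-74365144 (EREG), chr7:55018767-55019016 (EGFR) and chr5:140346604-140346853 (HBEGF). Capitals mark matches to the motifs listed after them.
AREG: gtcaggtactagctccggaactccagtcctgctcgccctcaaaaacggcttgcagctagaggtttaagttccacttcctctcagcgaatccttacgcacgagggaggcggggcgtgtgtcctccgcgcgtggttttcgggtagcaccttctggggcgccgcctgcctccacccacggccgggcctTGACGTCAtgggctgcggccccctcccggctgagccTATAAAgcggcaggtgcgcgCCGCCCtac
EREG: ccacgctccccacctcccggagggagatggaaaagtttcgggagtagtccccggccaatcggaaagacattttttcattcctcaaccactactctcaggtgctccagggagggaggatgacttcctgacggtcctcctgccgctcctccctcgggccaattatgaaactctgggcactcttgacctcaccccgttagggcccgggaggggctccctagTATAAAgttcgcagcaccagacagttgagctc
EGFR: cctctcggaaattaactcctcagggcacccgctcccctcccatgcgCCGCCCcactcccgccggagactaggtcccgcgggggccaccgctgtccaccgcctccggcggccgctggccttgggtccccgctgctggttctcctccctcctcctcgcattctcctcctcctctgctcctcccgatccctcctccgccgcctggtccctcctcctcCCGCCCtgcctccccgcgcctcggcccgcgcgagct
HBEGF: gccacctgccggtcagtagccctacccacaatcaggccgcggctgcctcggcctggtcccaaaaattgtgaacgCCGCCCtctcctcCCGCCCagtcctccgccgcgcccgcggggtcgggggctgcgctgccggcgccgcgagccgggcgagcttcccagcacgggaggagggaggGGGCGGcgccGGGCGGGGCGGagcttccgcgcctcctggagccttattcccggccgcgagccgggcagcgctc

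Motifs were searched by their letters on both strands of the same window in 35116 RefSeq promoters, and matches are descriptions of the sequence, not of binding. AREG and EREG both had a TATA box (TATAAA), 29 and 32 bases before the start, as did 10.7% of all promoters. AREG alone of the 4 held a cAMP response element (TGACGTCA), 65 bases before the start, which 1.65% of promoters held. The EGFR and HBEGF windows shown had no TATAAA but 2 and 5 copies of the SP1 motif GGGCGG, 2 of those of HBEGF sharing a base, and AREG had 1 copy, against 42.6% of promoters with at least 1. The FOXA letters TGTTTAC (2.98% of promoters), the HNF4 letters CAAAGTCCA (0.325%) and the AP-1 letters TGAGTCA (4.2%) were in none of the 4 windows shown. Among the members not shown, BTC held TGTTTAC 231 bases before its start and EGF held TGAGTCA 17 bases before its start. The window before the other RefSeq start of EGFR, at chr7:55109589-55109838, held 2 TATAAA and 2 TGAGTCA matches and no GGGCGG, and the values per gene do not separate transcripts from the 2 starts. GC content was 65.2% for AREG, 58.0% for EREG, 73.6% for EGFR (38.8% before its other start) and 76.4% for HBEGF, and the median of all promoters was 58.0%.

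In the control tumors ERBB3 was the most abundant member per length, at 42.1 ± 9.2 RPKM (SD, n = 3), followed by AREG at 32.2 ± 9.92, TGFA at 20.5 ± 2.05 and ERBB2 at 20.2 ± 2.28. EREG (14.4 ± 0.474), EGFR (11.3 ± 0.97), HBEGF (6.27 ± 0.846) and BTC (1.87 ± 0.456) came after these. Neighbors in this order whose libraries overlapped were ERBB3 and AREG, and TGFA and ERBB2, and the other neighbors among these 8 did not overlap. ERBB3 also had the highest mean in each of the other 5 HPAF-II groups, and HBEGF and BTC the lowest of the 8.

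EGF itself, the founding ligand, was nearly absent, with at most 0.051 RPKM and 16 recovered reads in any of the 21 libraries. ERBB4, the receptor of neuregulins, BTC, HBEGF and EREG, did not exceed 0.00596 RPKM. Neither gene reached the mean of 1 RPKM required for the test, so 8 of the 10 members were tested and these 2 were too low at this depth for a comparison. The other ERBB ligands EPGN, NRG1, NRG2, NRG3 and NRG4 were also low, the highest value being 0.201 RPKM for NRG4. The bulk values cannot separate fewer cells with a transcript from less RNA in each cell.

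**Figure D1:**
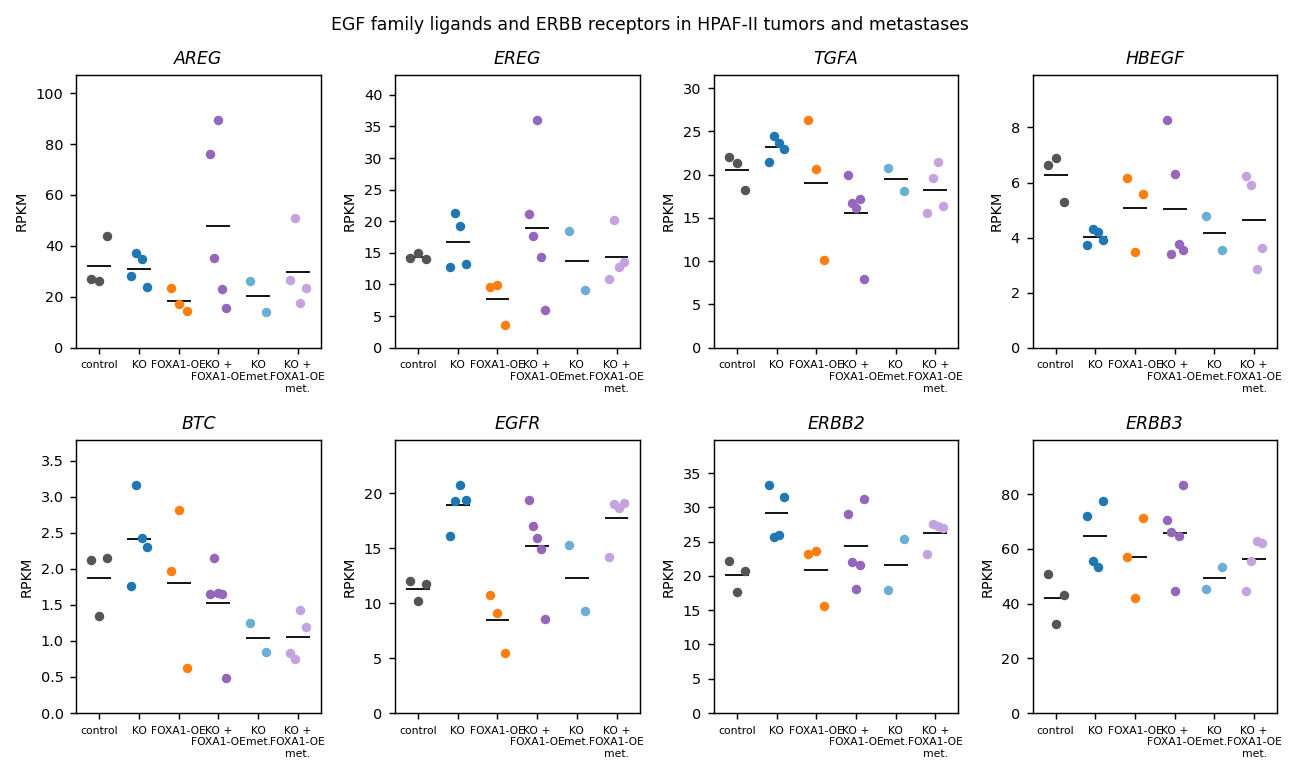
Expression of the 8 tested members (RPKM, linear axis from 0) in each HPAF-II library, one point a library, with a bar at the mean over the libraries of a group (met., metastasis). EGFR, ERBB2 and ERBB3 lay higher in all 4 HNF4G-KO tumors than in the 3 control tumors, HBEGF lay lower, and AREG spread from 15.7 to 89.4 RPKM among the HNF4G-KO + FOXA1-OE tumors.

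The first comparison asked which members differed between HNF4G-KO and control tumors. The 3 expressed receptors lay higher in the knockout tumors and HBEGF lower, none of them past the threshold of the test. EGFR, the receptor of most of these ligands, measured 12.0, 10.2 and 11.7 RPKM in controls and 16.1, 19.3, 20.7 and 19.4 RPKM in HNF4G-KO tumors. ERBB2, the ligandless partner, was at 22.2, 17.7 and 20.7 RPKM against 33.2, 25.7, 26.0 and 31.5. ERBB3 was at 50.7, 32.4 and 43.2 RPKM against 72.1, 55.5, 53.2 and 77.5. For each of these receptors the lowest knockout tumor was above the highest control tumor. HBEGF, a heparin-binding ligand, went the other way, with 6.62, 6.88 and 5.30 RPKM in controls and 3.74, 4.31, 4.20 and 3.91 in the knockout tumors, again with no overlap.

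In limma, a linear model on log2(RPKM + 1) over all primary tumors with 1 value a mouse, the log2 fold change was 0.69 for EGFR (95% confidence interval 0.16 to 1.21), 0.61 for ERBB3 (0.12 to 1.10), 0.50 for ERBB2 (0.08 to 0.93) and -0.52 for HBEGF (-1.02 to -0.03). The limma p-values adjusted by Benjamini-Hochberg over 14269 genes were 0.0811, 0.0911, 0.109 and 0.143, so 0 of 8 members passed 0.05, where 12.2% of all genes did. At an unadjusted p under 0.05 the count was 4 of 8, and over all genes 30.6%, and limma-voom on the recovered reads also called 0 members. The exact two-sided permutation test gave 0.0571 for each of the 4 genes, the smallest p that 3 against 4 tumors allow. A lack of overlap between the groups, found for 4 of 8 members, was seen for 46.4% of all tested genes. With only these 2 groups in the limma fit the same 4 genes passed (adjusted p 0.00316 to 0.0306), but so did 39.7% of all genes. The members' share without overlap was thus close to that of the whole table.

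For the 4 other members the libraries of the HNF4G-KO and control tumors overlapped and the 95% confidence intervals included 0. AREG was at 31.1 ± 6.08 RPKM (SD, n = 4) against 32.2 ± 9.92 (n = 3), and its interval of -0.95 to 0.89 log2 units did not settle a direction. EREG was at 16.7 ± 4.24 against 14.4 ± 0.474 RPKM, TGFA at 23.2 ± 1.29 against 20.5 ± 2.05, and BTC at 2.42 ± 0.571 against 1.87 ± 0.456. Their log2 fold changes in limma were -0.03 for AREG, 0.17 for EREG, 0.17 for TGFA and 0.25 for BTC. The median over the 8 members was 0.21, and over all genes 0.015.

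**Figure D2:**
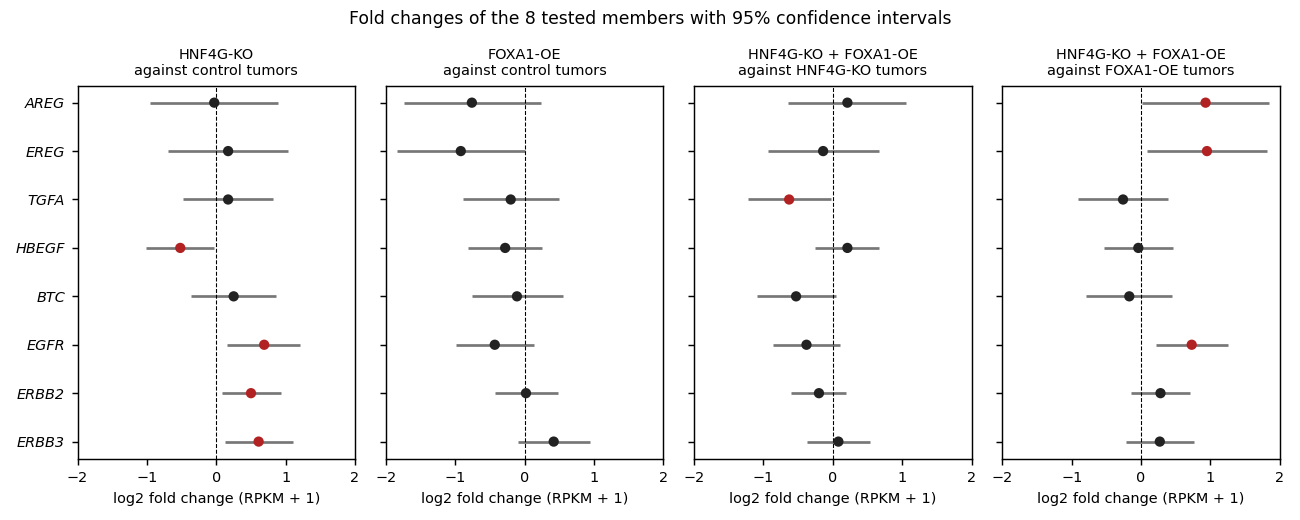
Log2 fold changes of log2(RPKM + 1) from limma for the 8 tested members in 4 comparisons of primary tumors, points for the estimates and lines for 95% confidence intervals, with red points where the unadjusted p was under 0.05. Red points were EGFR, ERBB2, ERBB3 and HBEGF for HNF4G-KO against control tumors, TGFA for added FOXA1 in the knockout, and AREG, EREG and EGFR for the knockout among FOXA1-OE tumors, and none passed after adjustment.

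The second comparison set FOXA1-OE tumors against control tumors. AREG and EREG, the neighboring ligands, lay lower in the FOXA1-OE tumors with no overlap. These were 2 of the 8 members, and 9.25% of all tested genes did not overlap in either direction. AREG measured 26.9, 26.1 and 43.7 RPKM in controls and 23.5, 17.3 and 14.5 RPKM in FOXA1-OE tumors. EREG was at 14.2, 14.9 and 14.0 RPKM against 9.57, 9.98 and 3.65. The lowest value of both ligands belonged to FOXA1-OE tumor 3, the sample whose FOXA1 was at the control level. The log2 fold change in limma was -0.76 for AREG (-1.74 to 0.23, adjusted p 0.84) and -0.92 for EREG (-1.84 to 0.01, adjusted p 0.84), and without tumor 3 EREG was at -0.52. The exact two-sided permutation p was 0.1 for both, the smallest that 3 against 3 tumors allow. limma called 0% of the genes here and limma-voom 0 genes, with 4.57% of all genes and 0 of the 8 members at an unadjusted p under 0.05.

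FOXA1-OE tumor 3 also held the lowest EGFR of all samples (5.50 RPKM, against 10.7 and 9.09 in the other FOXA1-OE tumors). TGFA in this group was at 26.3, 20.7 and 10.1 RPKM and BTC at 1.97, 2.82 and 0.629, both lowest in tumor 3. ERBB3 was the exception, with 57.2, 42.2 and 71.3 RPKM and its highest value in tumor 3. Within the group the order of the samples was thus not shared by all members.

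In the third comparison, added FOXA1 in the knockout, AREG and EREG varied widely among the HNF4G-KO + FOXA1-OE tumors. AREG was at 76.2, 35.1, 89.4, 23.0 and 15.7 RPKM in tumors 1 to 5, and EREG at 21.1, 17.6, 36.0, 14.3 and 5.91. FOXA1 in the same tumors was at 12.0, 5.76, 23.1, 6.50 and 4.65 RPKM. Tumors 3 and 1 thus ranked first and second for all 3 genes and tumor 5 last, and tumors 2 and 4 changed places between FOXA1 and the ligands. Over the 14 mice with a primary tumor no relation of either ligand with FOXA1 passed the test, with Pearson's r of 0.24 and Spearman's rho of 0.07 for AREG (permutation p 0.409 and 0.821, adjusted 0.736 and 0.88 over 45 pairs) and 0.19 and 0.21 for EREG (permutation p 0.517 and 0.472, adjusted 0.738 and 0.618). Without the 2 mice farthest from the median of FOXA1 r was -0.49 and -0.19. After removal of the group means r with FOXA1 was 0.52 for AREG and 0.80 for EREG, which was not tested. With 4 mice no correlation was computed within this group, and tumors 2 and 3, at 35.1 and 89.4 RPKM of AREG, came from 1 mouse. AREG in the HNF4G-KO tumors was at 28.1, 37.2, 34.9 and 24.0 RPKM, inside the range with FOXA1.

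TGFA, an EGFR ligand, lay lower in every HNF4G-KO + FOXA1-OE tumor (20.0, 16.7, 16.1, 17.2 and 7.94 RPKM) than in any HNF4G-KO tumor (21.5, 24.5, 23.7 and 22.9). It was the 1 member of 8 without overlap, against 9.48% of all genes. Its log2 fold change in limma was -0.63 (-1.23 to -0.03, adjusted p 0.234), with an exact permutation p of 0.0286, the smallest that 4 against 4 mice allow. BTC followed with -0.53 (-1.10 to 0.04, adjusted p 0.266), at 1.42 ± 0.633 RPKM (n = 4 mice) against 2.42 ± 0.571. Both values were smaller without tumor 5, at -0.36 for TGFA and -0.31 for BTC. The other 6 members had log2 fold changes between -0.38 and 0.21. limma called 0 of 8 members and 0.0561% of all genes, limma-voom 0 members, and 1 of 8 members had an unadjusted p under 0.05 against 20.3% of all genes.

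Against the control tumors, the HNF4G-KO + FOXA1-OE tumors had higher ERBB3, at 68.2 ± 12.0 RPKM (n = 4 mice) against 42.1 ± 9.2. Tumor by tumor ERBB3 was at 70.6, 66.0, 44.7, 64.6 and 83.2 RPKM, of which tumor 3 lay within the control range. None of the 8 members was free of overlap, against 14.5% of all genes. The log2 fold change was 0.69 (0.20 to 1.18) with an adjusted p of 0.106 in limma, which called 4.7% of all genes and none of the 8 members. TGFA had the next largest value (-0.46, -1.11 to 0.19, adjusted p 0.446), and was at -0.19 without tumor 5. At an unadjusted p under 0.05 the counts were 1 of 8 members and 19.2% of all genes, and limma-voom again called 0 members.

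The fifth comparison set the knockout against the intact state among the tumors labeled FOXA1-OE, of which FOXA1-OE tumor 3 had FOXA1 at the control level, and AREG, EREG and EGFR had higher means in the knockout with overlapping libraries. AREG was at 42.8 ± 28.4 RPKM (n = 4 mice) in the HNF4G-KO + FOXA1-OE tumors against 18.5 ± 4.61 (n = 3) in the FOXA1-OE tumors. EREG was at 16.6 ± 8.44 against 7.73 ± 3.54 RPKM, and EGFR at 14.8 ± 4.58 against 8.43 ± 2.65. HNF4G-KO + FOXA1-OE tumor 5, with AREG at 15.7, EREG at 5.91 and EGFR at 8.54 RPKM, lay inside the FOXA1-OE range for each of them. The groups overlapped for all 8 members, whereas 12.7% of all genes did not overlap. The log2 fold changes were 0.93 (0.01 to 1.85), 0.95 (0.08 to 1.82) and 0.73 (0.21 to 1.26), with limma adjusted p-values of 0.205, 0.168 and 0.0844. Without tumor 5 they were 1.31, 1.35 and 0.96, and all 3 passed (adjusted p 0.0406, 0.0207 and 0.0127), in a fit that called 10.2% of all genes. Without FOXA1-OE tumor 3 they were 0.78, 0.55 and 0.49 (adjusted p 0.37, 0.457 and 0.249), and without HNF4G-KO + FOXA1-OE tumor 1 AREG was at 0.57 (adjusted p 0.414). With all tumors limma called 0 of 8 members and 7.86% of all genes, 3 of 8 members and 23.6% of all genes were under 0.05 before adjustment, and limma-voom called 0 members.

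Whether the change with FOXA1 differed between knockout and intact tumors was tested as the difference of both effects. It was 0.96 for AREG (-0.34 to 2.27, adjusted p 0.719 in limma) and 0.78 for EREG (-0.44 to 2.01, adjusted p 0.771), both with intervals that included 0. Without FOXA1-OE tumor 3 EREG was at 0.38 and without HNF4G-KO + FOXA1-OE tumor 5 at 1.18, and without tumor 1 of the same label AREG was at 0.60. The other members lay between -0.43 and 0.48. limma called 0 of 8 members and 0.035% of all genes, 0 members and 8.47% of all genes were under 0.05 before adjustment, and limma-voom called 0 members.

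Across the 14 mice with a primary tumor, AREG and EREG varied together. Pearson's r of log2(RPKM + 1) was 0.83 and Spearman's rho 0.80, with permutation p-values of 0.00016 and 0.00096 (0.00203 and 0.0216 after Benjamini-Hochberg adjustment over 45 pairs of members, HNF4G and FOXA1). Without the 2 mice farthest from the median of AREG r was 0.84, and after removal of the group means it was 0.79. EGFR followed HNF4G RNA more closely, with r of 0.97 and rho of 0.90 (permutation p 1e-05, the smallest that 100000 permutations give, and 4e-05, adjusted 0.00045 and 0.0018). Here r was 0.94 without the 2 mice farthest from the median of HNF4G and 0.91 without group means, and this pair was singled out after its values were seen. HNF4G RNA also went with EREG (r 0.85, rho 0.62, adjusted permutation p 0.00203 and 0.136) and AREG (r 0.68, rho 0.64, adjusted permutation p 0.0482 and 0.115). Without group means r with HNF4G was 0.93 for TGFA, 0.89 for EREG, 0.83 for BTC and 0.74 for AREG. It was 0.42 for HBEGF, 0.16 for ERBB2 and -0.40 for ERBB3. The values without group means were not tested. With group means kept, TGFA and BTC did not pass with HNF4G (adjusted permutation p 0.0596 each for r, 0.28 and 0.336 for rho). Without the 2 mice farthest from the median of HNF4G, r was 0.69 for EREG, 0.59 for AREG, 0.42 for TGFA and 0.36 for BTC. On the same mice it was 0.05 for HBEGF, 0.39 for ERBB2 and 0.42 for ERBB3. FOXA1 and HNF4G had r of 0.20, and 0.87 without group means. The permutations moved mice across the groups, so the p-values of these pairs also take in differences between groups. All 45 pairs share their libraries, and 2.94% of the 14269 tested genes had an r of at least 0.9 with EGFR. EREG also followed EGFR with r of 0.86, but rho of 0.70 had an adjusted permutation p of 0.0848.

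The genes most like each member over the 14 mice, by Pearson's r of log2(RPKM + 1), are given as a description without a test. AREG was closest to GLIPR1 (0.94), ATF3 (0.93) and CTSL (0.93), and only 4 genes reached 0.9. EREG was closest to GEM (0.96), DCBLD2 (0.96) and ANXA1 (0.95). EGFR had SAMD8 (0.99), RALGPS2 (0.98) and MAPKAPK5 (0.98), TGFA had TRIM4 (0.98) and KCTD18 (0.97), and BTC had NOA1, PDE8A and PNISR (0.96 each). The number of genes at 0.9 or more was 420 for EGFR, 242 for TGFA, 170 for BTC and 102 for EREG. ERBB2 was closest to CD82 (0.94), LLGL2 (0.94) and DNM2 (0.93), and ERBB3 to TRIM31-AS1 (0.93), ATG13 (0.92) and SPIRE2 (0.89). HBEGF had no gene at 0.9, the nearest being KTI12 (0.85), H3-3B (0.83) and ACTG1 (0.82).

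Around the members, 66 genes of the pathway were followed in 5 lists, of which 57 were expressed highly enough for the test in the primary tumors. Between HNF4G-KO and control tumors 2 of these rose and 3 fell, in all 8.77% of the 57, against 12.2% of all genes. Among 7 tested genes of ligand shedding 1 rose, RHBDL2, a rhomboid protease of the membrane, from 2.85 ± 0.525 to 5.60 ± 1.05 RPKM (limma log2 fold change 0.78, adjusted p 0.0221). Among 23 adaptors and kinases of the RAS-MAPK-PI3K core, GAB1, a docking protein of EGFR signaling, rose from 0.778 ± 0.226 to 1.73 ± 0.172 RPKM (0.62, adjusted p 0.0272). In the same list HRAS, a RAS GTPase, fell from 16.5 ± 1.59 to 8.56 ± 1.53 RPKM (-0.88, adjusted p 0.0206). Of 12 ERK response genes 2 fell, FOSL1, a subunit of AP-1, from 82.6 ± 11.0 to 36.1 ± 6.49 RPKM (-1.18, adjusted p 0.00307) and ETV5, an ETS factor, from 6.79 ± 1.30 to 3.29 ± 0.457 (-0.85, adjusted p 0.0386). None of 15 receptor and pathway inhibitors passed.

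ETV5 was also lower in the HNF4G-KO + FOXA1-OE tumors, at 2.80 ± 1.60 RPKM, than in the control tumors (-1.11, adjusted p 0.0208 in limma) and than in the FOXA1-OE tumors, at 9.37 ± 1.07 (-1.53, adjusted p 0.00263). The first of these was the only call among the 57 genes in its comparison (1.75%, against 4.7% of all genes). In the second, 2 inhibitors of the pathway were lower as well, so that 3 of the 57 (5.26%) passed against 7.86% of all genes. LRIG1, which promotes the breakdown of ERBB receptors, was at 4.86 ± 2.31 against 15.0 ± 4.86 RPKM (-1.47, adjusted p 0.0138), and SPRY1, a Sprouty inhibitor of RAS-MAPK signaling, at 4.47 ± 0.973 against 9.49 ± 3.74 (-0.90, adjusted p 0.0379). None of the 57 genes passed for FOXA1-OE against control tumors, for HNF4G-KO + FOXA1-OE against HNF4G-KO tumors or for the difference of both effects. The comparisons share tumor groups, so these calls are not independent of each other. Pathway genes were followed only in the main fits, and whether their calls hold when a mouse is left out was not tested.

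Metastases were compared with tumors of the same label, without pairing samples of the same mouse. In the knockout EGFR was at 15.3 and 9.30 RPKM in the 2 peritoneal metastases, below all 4 tumors (16.1 to 20.7). BTC was at 1.25 and 0.842 RPKM, also below the tumors (1.77 to 3.16). ERBB2 (17.9 and 25.4 RPKM against 25.7 to 33.2) and TGFA (20.8 and 18.1 against 21.5 to 24.5) did not overlap with the tumors either. These were 4 of the 8 members, and 33.0% of all tested genes did not overlap. The log2 fold change was -0.73 for BTC (-1.30 to -0.17, adjusted p 0.279) and -0.61 for EGFR (-1.20 to -0.03, adjusted p 0.354) in limma, and AREG, at 26.3 and 14.2 RPKM, had -0.63 (-1.75 to 0.48, adjusted p 0.607). Without the mouse of tumor 4 and metastasis 2 EGFR was at -0.27 and AREG at -0.33, and without the mouse of tumor 2 and metastasis 1 they were at -0.93 and -0.96, each with 1 metastasis assumed to vary like the other groups. limma called 0 of 8 members and 0.0426% of all genes, 2 of 8 members and 13.4% of all genes were under 0.05 before adjustment, limma-voom called 0 members, and 2 against 4 samples cannot go below a permutation p of 0.133. Stromal genes summed to 59.1 and 334 RPKM in these metastases against 39.1 to 58.1 in the tumors, and their part in the differences was not tested beyond a stromal covariate, under which AREG turned to 0.11 and EGFR was at -0.41. In 1 of the 2 mice with both samples, the mouse of tumor 2 and metastasis 1, EREG was at 21.3 and 18.4 RPKM, and in the other at 13.3 and 9.09.

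In the HNF4G-KO + FOXA1-OE metastases EGFR was at 14.2 (spleen), 19.0, 18.6 and 19.1 RPKM, against 8.54 to 19.4 in the tumors, and its log2 fold change was 0.32 (-0.19 to 0.83, adjusted p 0.613 in limma). AREG was at 26.6 (spleen), 51.0, 17.4 and 23.3 RPKM, and the highest value came from metastasis 2, which also had the highest FOXA1 of the metastases. Metastases 1 and 2 came from the mouse of tumor 1, where AREG was at 76.2 RPKM. The log2 fold change of AREG was -0.51 (-1.49 to 0.48, adjusted p 0.667). With each mouse left out in turn AREG ran from -0.88, without the mouse of tumor 5, to -0.27, without that of metastasis 3, and EGFR from 0.09, without the mouse of tumor 5, to 0.52, without that of tumor 1. The groups overlapped for all 8 tested members, and 2.65% of all genes did not overlap. limma called 0 of 8 members and 0.00709% of all genes, 0 members and 9.62% of all genes were under 0.05 before adjustment, and limma-voom called 0 members. None of the 56 tested pathway genes passed in either comparison of metastases.

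In the KPC lines the replicates split in an unusual way, which bears on every comparison there. Replicates 1 and 2 of the tumor line resembled replicates 3 and 4 of the metastasis line for several members, and the reverse. The split was not confined to the members. Marker genes of classical pancreatic cancer summed to 746.7 and 782.3 RPKM in tumor replicates 1 and 2. The sums were 692.9 and 971.1 RPKM in metastasis replicates 3 and 4, and 42.64 to 66.91 RPKM in the other libraries. Ereg, the mouse epiregulin gene, was at 1.13 and 0.673 RPKM (182 and 114 recovered reads) in tumor replicates 1 and 2 and at 0.539 and 0.582 (67 and 78 reads) in metastasis replicates 3 and 4. In the other 4 libraries Ereg was listed at 0. Areg showed the same split, at 77.4, 74.6, 39.5 and 47.4 RPKM in tumor replicates 1 to 4 and 45.8, 42.7, 68.0 and 66.7 in metastasis replicates 1 to 4. Tgfa was at 17.6, 16.6, 12.4 and 11.9 RPKM in the tumor line and 11.8, 11.2, 14.7 and 14.1 in the metastasis line. The labels were used as given, and whether they match the libraries was not tested.

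Over all 8 libraries, 7 orthologs were tested, and none differed by more than its spread. Hbegf was the most abundant member in both lines, at 81.0 ± 43.2 RPKM (tumor line; SD, n = 4) and 77.4 ± 29.0 (metastasis line), and overlapped with Areg (59.7 ± 19.1 and 55.8 ± 13.4), the next in order. Then came Erbb2 (28.1 ± 2.64 and 28.7 ± 3.65), Btc (14.9 ± 1.38 and 15.4 ± 4.27), Tgfa (14.6 ± 2.91 and 13.0 ± 1.70), Erbb3 (5.23 ± 1.12 and 5.88 ± 2.86) and Egfr (3.76 ± 0.189 and 3.82 ± 0.530). Of these neighbors, Btc and Tgfa, and Erbb3 and Egfr, overlapped in both lines. Egf stayed between 0.178 and 0.399 RPKM and Erbb4 was listed at 0 in all 8 libraries. The largest log2 fold changes in limma were -0.15 for Tgfa (-0.50 to 0.20) and 0.08 for Erbb3 (-0.53 to 0.68), and Areg had -0.07 (-0.65 to 0.51), each with an adjusted p of 1.0. limma called 0% of the 12585 tested genes and limma-voom 0 genes, with 0.866% of all genes and 0 of the 7 orthologs under 0.05 before adjustment, and none of 61 tested pathway genes passed.

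The replicates were divided in this way because their opposite directions were known from earlier results, so the p-values of the parts are descriptive. Within replicates 1 and 2 alone, Areg (-0.77, adjusted p 0.00344), Tgfa (-0.53, adjusted p 0.00754) and Erbb3 (-0.50, adjusted p 0.022) were lower in the metastasis line in limma, in a fit of 2 against 2 libraries that called 25.5% of all genes. Within replicates 3 and 4 alone the values were 0.63 for Areg, 0.23 for Tgfa and 0.65 for Erbb3 (adjusted p 0.201, 0.506 and 0.386), none past the threshold, and 0.635% of all genes were called. Hbegf did not follow the split, at 141.0, 83.3, 56.9 and 42.9 RPKM in the tumor line and 120.0, 70.0, 66.8 and 53.4 in the metastasis line. It was higher in replicates 1 and 2 than in 3 and 4 of either line.

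**Figure D3:**
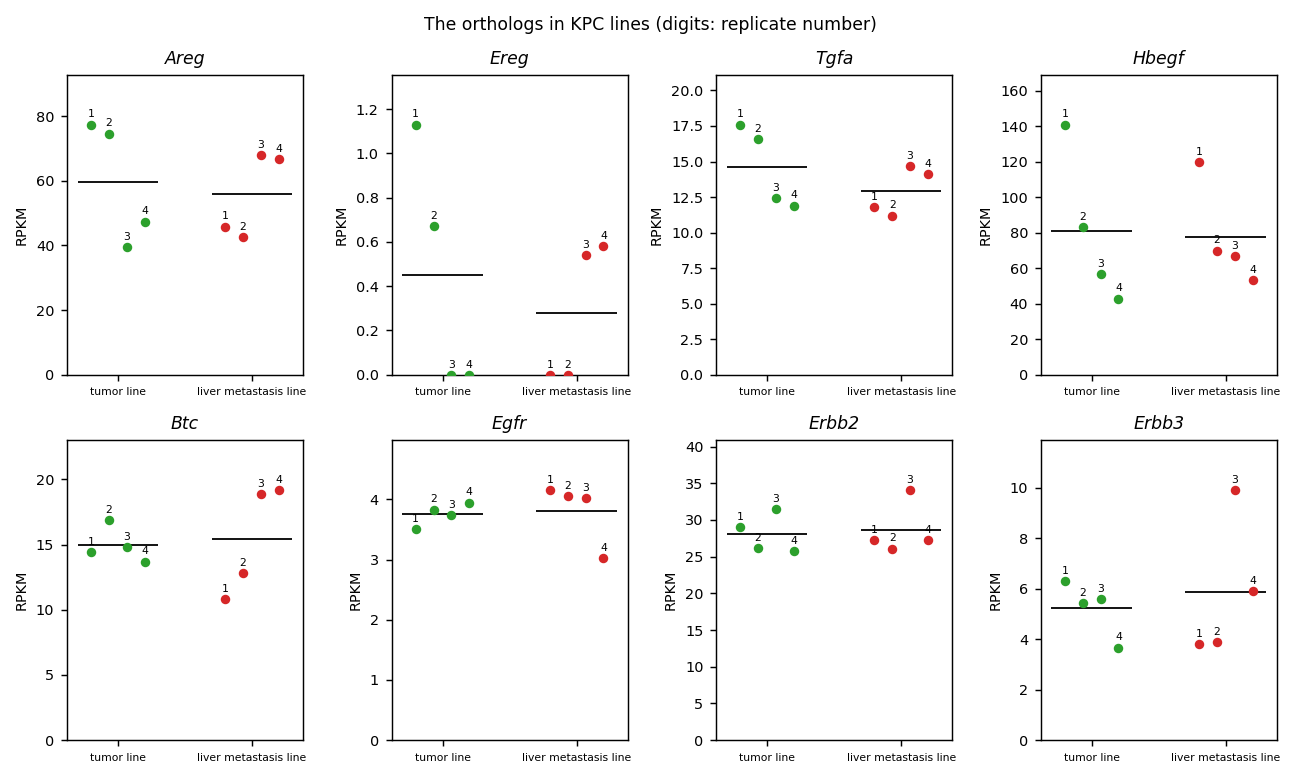
Expression of 8 orthologs (RPKM, linear axis from 0) in the KPC tumor line and the KPC liver metastasis line, one point a library with its replicate number and a bar at the mean of the 4 libraries. Ereg was listed at 0 in tumor replicates 3 and 4 and metastasis replicates 1 and 2, and Areg and Tgfa were lower in the same 4 libraries.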

How the data were processed

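RNA was sequenced with a stranded mRNA kit as single-end reads, per the study's methods. The authors aligned reads with STAR 2.6.1a, and the submitters' notes name featureCounts 2.0.4 and DESeq2. The methods name GRCh37 for human reads while the notes name hg38, so gene positions here come from GENCODE annotation of GRCh38 and were not taken from the tables. The deposited values are RPKM per gene and sample. Because RPKM is no count, the main test was limma 3.58.1 (R 4.3.3) with a mean-variance trend on log2(RPKM + 1), over genes averaging 1 RPKM or more. It used Benjamini-Hochberg adjustment and a threshold of 0.05. Each mouse gave 1 value for its tumors and 1 for its metastases, and each KPC library gave 1 value. The fold changes understate those of low genes. Whole reads were recovered from the RPKM steps of all genes at a mean of 1 RPKM or more (100%, tolerance 0.002), which fixes relative depth but not its absolute scale. KPC depth ran from 30100000 to 44400000 recovered reads.

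Groups came from the labels. Nothing in the labels says how the 4 KPC libraries of a line were grown, so p-values there measure only the spread between libraries. No pair of libraries of the same group agreed within sampling noise, and pairs from different groups were not examined. The deposited mouse data held 12 columns of other samples, which were not used. Members were tested once per comparison, with exact permutation tests of the mean log2 value. Members and gene lists were chosen with earlier results of these data known. All members were named, and of the pathway lists those past the threshold, at most 6 a comparison. The alternatives were another pseudocount (0.1), no filter, median scaling, only the groups compared, separate tumors of a mouse, a stromal covariate, replicate blocks, leaving out each mouse or library, the KPC replicates 1 and 2 or 3 and 4 alone and, chosen after seeing the data, limma-voom. The limma script was checked on simulated data. Metastases and tumors of the same mouse are paired by animal, with deviations that correlated at 0.25, 0.3, 0.27 and -0.03. The main limma fits and the permutation tests did not use this pairing and treated such samples as independent. With the mouse as a block no call of a member changed. Promoters came from RefSeq (GRCh38.p14), in which 9 of the 10 members had an entry. Tables and exact tests used Python 3.11.15 with scipy 1.17.1. Up to 3 genes most like each member were named, and 1 such gene is not reported here.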

Additional observations from a re-analysis of the deposited data

Results flagged for a closer look

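Among 34 sets of 4 values of a member in a group, 3 held a library far from the others by Dixon's criterion, and chance gives about 1 in 20 such sets. In the KPC tumor line Egf was lowest in replicate 1, at 0.178 RPKM, against 0.257 for the nearest other library. In the KPC liver metastasis line Egfr was lowest in replicate 4, at 3.03 RPKM, against 4.02 for the nearest other library. In the same line Erbb2 was highest in replicate 3, at 34.1 RPKM, against 27.3 for the nearest other library.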

How the results depend on the processing

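No member passed the threshold in any of the 9 main fits. Groups were small, with 2 to 4 mice each for HPAF-II and 4 libraries a KPC line, and the part of group size was not tested. The number of members past the threshold changed in 3 comparisons. For HNF4G-KO against control tumors it was 4 with only these groups in the fit and 1, EGFR at an adjusted p of 0.0482, with the tumor number as a replicate block. For HNF4G-KO + FOXA1-OE against FOXA1-OE tumors it was 1 (EGFR) with tumors of a mouse entered separately, 3 under the replicate block, and 0 to 3 when each mouse was left out. For the KPC lines it was 3 with replicates 1 and 2 alone, a split chosen with its directions known. The labels do not say that a tumor number marks a shared animal or batch, and the deviations of same-numbered samples correlated at -0.27 to 0.63 in the primary tumors and -0.41 to 0.21 in the KPC lines, so numbers were not read as pairs. Between FOXA1-OE and HNF4G-KO + FOXA1-OE tumors, where the block gave 3 calls, both same-numbered pairs available correlated positively, at 0.31 and 0.63, and 2 pairs were too few to settle a pairing. The block changed no other count of members. Of 406 repeats of 27 reported fold changes, 377 kept direction and side of the threshold, 14 newly passed and 15 changed sign. AREG in HNF4G-KO against control tumors was 0.20 under the replicate block and -0.16 to 0.20 when each mouse was left out. With the stromal covariate AREG in metastases was 0.11 (HNF4G-KO) and 0.10 (HNF4G-KO + FOXA1-OE). In the KPC lines Erbb3 was -0.50 with replicates 1 and 2 alone and -0.17 to 0.22 with each library left out, Areg 0.63 with replicates 3 and 4 alone and -0.25 to 0.07 with each library left out, and Tgfa 0.23 with replicates 3 and 4 alone, where Erbb3 was 0.65. The cause of these changes was not tested. Over all genes the count of calls ran from 284 to 5595 around 1736 for HNF4G-KO against control tumors, from 25 to 809 around 670 for HNF4G-KO + FOXA1-OE against control tumors and from 86 to 1439 around 1122 against FOXA1-OE tumors, from 0 to 23 around 8 for added FOXA1 in the knockout, from 0 to 7 around 5 for the difference of both effects, from 0 to 213 around 6 and 0 to 57 around 1 for metastases of the knockout and of the knockout with FOXA1, from 0 to 3 for FOXA1-OE against control tumors and from 0 to 3174 for the KPC lines.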
